A study of Mus musculus with 19 samples.

Results

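The mRNA levels of 46 interferon-stimulated genes were examined in the CA1 region of the mouse hippocampus. The genes were taken from a list of mouse symbols for type I and type II interferon-stimulated genes and were matched to Ensembl identifiers through GENCODE M21. All 46 were among the 48709 genes in the count files, and all 46 passed the filter on low counts that left 19297 genes for testing. CA1 tissue was microdissected from mice of 7 months, and poly(A) RNA was sequenced as single-end reads in 19 libraries. WT control (n = 6 libraries) were wild-type littermates given the control oligonucleotide, APP control (n = 6 libraries) were APPPS1-21 mice that received the control oligonucleotide, and APP anti-miR-mix (n = 7 libraries) were APPPS1-21 mice that received a mixture of inhibitors, one against miR-148a-3p, one against miR-181a-5p and one against miR-146a-5p. In every group the oligonucleotides were packed in lipid nanoparticles and injected into the dorsal hippocampus, so none of the groups was without an injection. The titles of the WT control libraries also carry the word anti-miR-mix, and the study's description of these mice as controls was followed. APPPS1-21 mice carry human APP with the Swedish mutation among their transgenes, under Thy1 regulatory sequence that is active in neurons, and they deposit amyloid.

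Interferons are secreted proteins, and cells release those of type I after sensing foreign or misplaced nucleic acid. Type I interferons bind the IFNAR receptor and lead to assembly of a complex containing STAT2 and IRF9 that binds the interferon-stimulated response element (ISRE), whereas interferon gamma acts through the gamma-activated site (GAS). In the brain, interferon-stimulated genes are known to be induced in microglia, astrocytes and endothelium during infection, in ageing and around amyloid plaques.

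Levels are given as normalized read counts, which are counts divided by a size factor of each library, and total counts spanned 19362343 to 37018917 per library. The genotype labels fit the counts, since Thy1 did not exceed 20734 normalized counts in WT control and was at least 36153 in every transgenic library. The 6 markers of CA1 pyramidal neurons summed to between 24367 and 40263 normalized counts in each library, and none of them passed the test in any comparison. Several libraries stood apart. WT control 1 held the highest WT control value of 45 of the 46 members, against 18.4% of all genes tested, with a total of 29259268 counts. APP control 5 had a plaque-associated microglia marker sum of 7750, which lies below the 7929 of WT control 1 and far under the APP control median of 17894. That library also held 1210 normalized counts of the neutrophil gene S100a8 and 1523 of S100a9, which did not pass 31.9 and 66.3 elsewhere, and the highest red cell marker sum, 2715. Ttr, a choroid plexus gene, stood at 1443 in WT control 5 and at 1084 in APP anti-miR-mix 6, whereas no other library exceeded 161. Counts of members called are therefore given with and without WT control 1. Leaving out APP control 5 left 1 member called for APP control and 10 for APP anti-miR-mix, and leaving out WT control 5 together with APP anti-miR-mix 6 left 1 and 3, the 3 being Lgals3bp, Sp100 and Trim30a. The labels do not say that each library is a separate animal and give no day, so p-values measure the spread between these libraries.

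Compared with WT control, 1 member rose in APP control and 8 rose in APP anti-miR-mix, and no member fell. The member that rose in both groups was Lgals3bp, and the others that rose in APP anti-miR-mix were Sp100, Trim30a, Irf9, Eif2ak2, Stat2, Trim25 and Ifi204. In APP control the called member compares with 3.66% of all genes tested called higher and 4.71% called in either direction (DESeq2, adjusted p under 0.05). In APP anti-miR-mix the 8 of 46 members compare with 5.59% of all genes called higher and 8.95% in either direction. The median log2 fold change of the members was 0.31 for APP control against 0.54 for APP anti-miR-mix, beside medians of -0.012 and -0.015 over all genes tested. Both comparisons share the WT control libraries. In bulk tissue, fewer cells of a type and less RNA per cell cannot be told apart.

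When APP anti-miR-mix was set against APP control, no member passed the test, and neither did any other gene (0.0% called in DESeq2, and 0 of 46 members in edgeR). With no adjustment, 0 of 46 members had a p under 0.05 in the DESeq2 fit of all libraries, beside 2.86% of all genes. The members' log2 differences ran from -0.10 for Gbp2 to 0.61 for Oas2 with a median of 0.15, and their median standard error was 0.28. That fit shares its estimate of the spread per gene with the WT control libraries. With WT control 1 left out, 2 members had an unadjusted p under 0.05, at a median standard error of 0.21, and 0 were called. A DESeq2 fit of these 2 groups only gave 2 members, at a median standard error of 0.22, and 0 called. For Oas2, one of the enzymes that make 2′-5′ oligoadenylate, the difference of 0.61 had a standard error of 0.31 and an unadjusted DESeq2 p of 0.0531. A p above the threshold does not show that both groups had the same level.

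**Figure D1:**
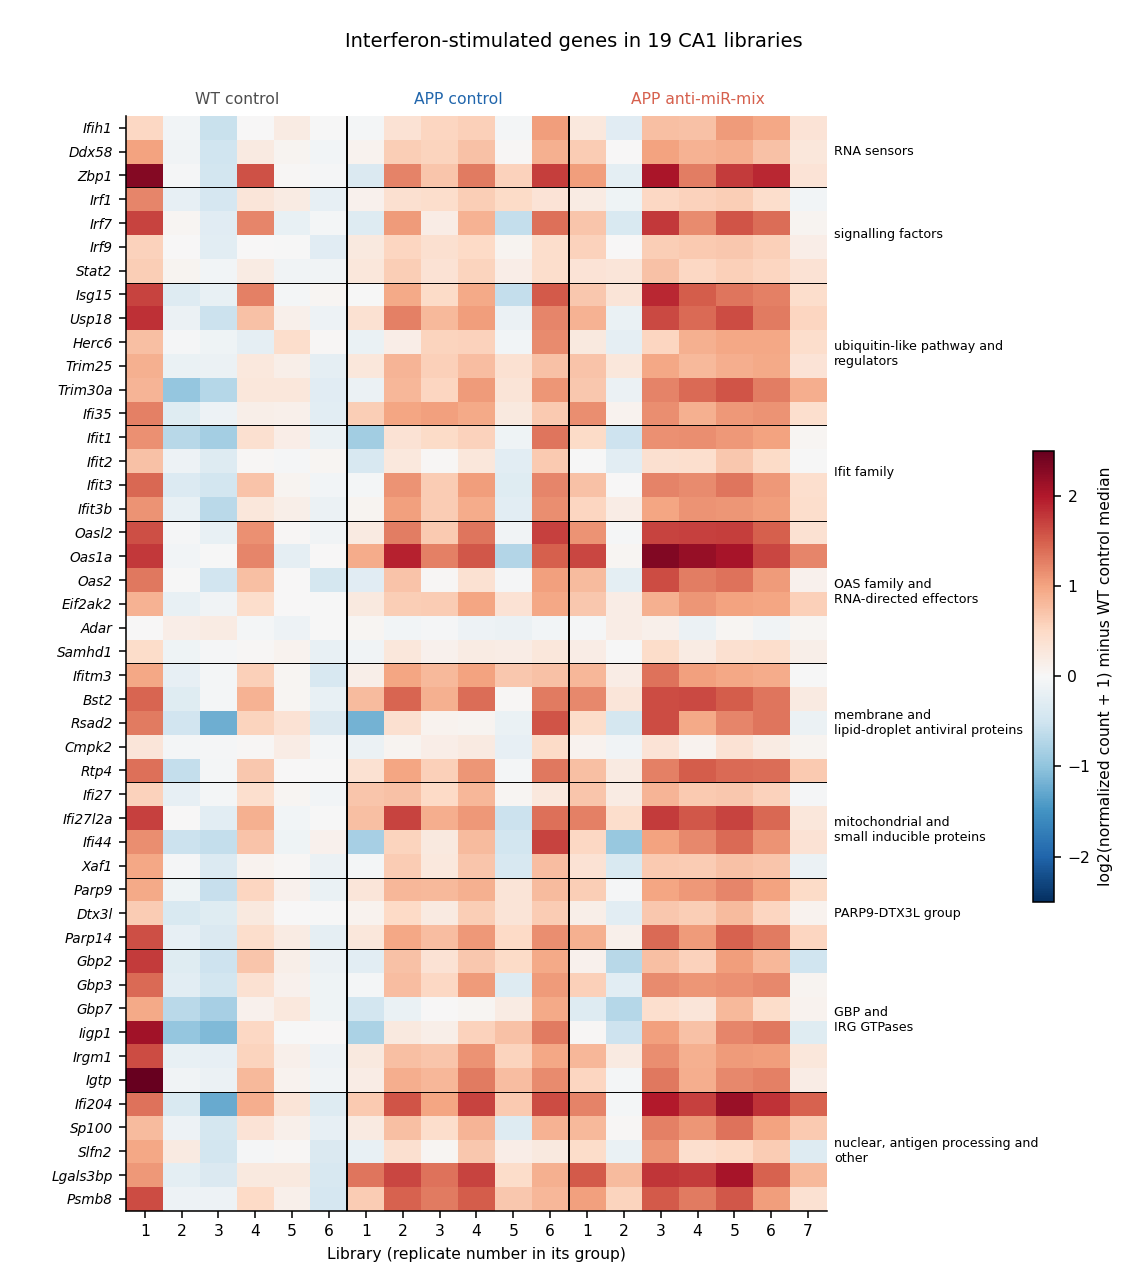
Heat map of log2(normalized count + 1) minus the WT control median for the 46 members (rows, grouped by role) in each of the 19 libraries (columns, by group and replicate number). WT control 1 is red in 45 of the rows, whereas APP control 1 and 5 and APP anti-miR-mix 2 and 7 are pale or blue in most of theirs.

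Without WT control 1, 17 members rose in APP control and 29 rose in APP anti-miR-mix. In that fit 19415 genes were tested, of which 4.65% and 6.38% were called higher, and 6.23% and 10.4% were called in either direction. The members' median log2 fold changes were then 0.59 and 0.83. WT control 1 was singled out by its values for these genes, so its omission lowers their WT control mean by construction, and the counts without it describe how far the calls rest on a single library. No member had every APP control library above every WT control library, and none had every APP anti-miR-mix library above them, where 1.2% and 2.52% of all genes did. With WT control 1 left out there were 5 such members in APP control, namely Irf9, Trim25, Ifi35, Lgals3bp and Psmb8 (10.9% of the members, beside 2.47% of all genes). In APP anti-miR-mix there were 3, namely Stat2, Trim25 and Lgals3bp (6.52%, beside 3.64%).

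**Figure D2:**
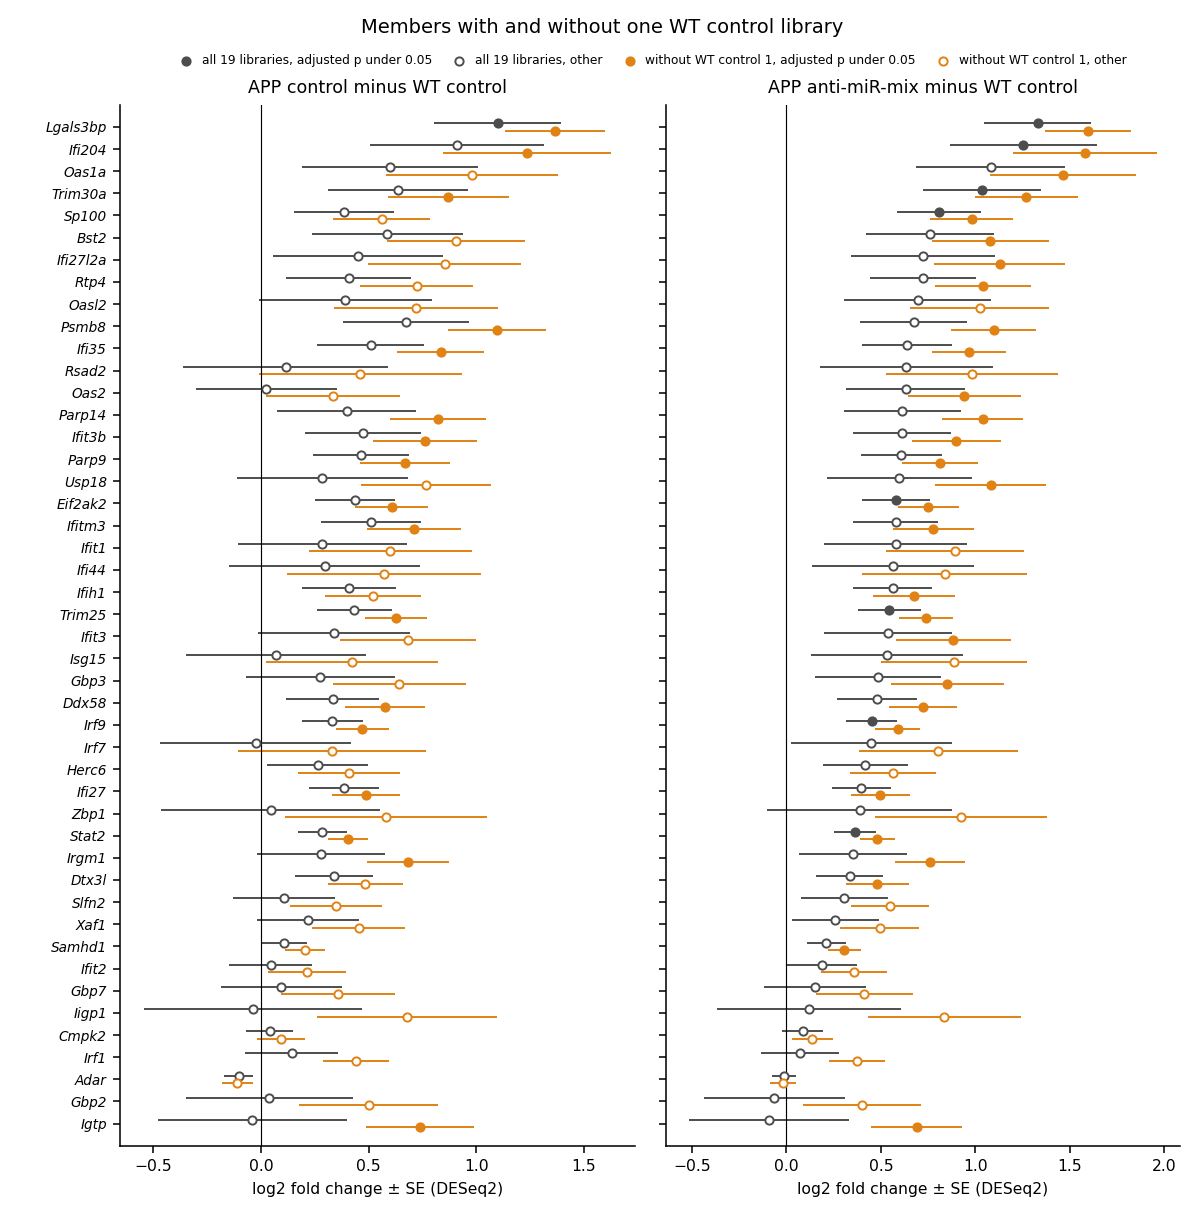
Log2 fold changes with standard errors (DESeq2) of the 46 members for APP control minus WT control (left) and APP anti-miR-mix minus WT control (right), with all 19 libraries (grey) and without WT control 1 (orange). Filled points have an adjusted p under 0.05, which 1 and 8 grey points and 17 and 29 orange points reach.

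The RNA and nucleic acid sensors were represented by Ifih1 (MDA5), Ddx58 (RIG-I) and Zbp1, which binds nucleic acid in the Z conformation. None of the 3 rose against WT control in either transgenic group. Zbp1 (ENSMUSG00000027514, chr2:173206612-173218923) spanned 38.1 to 263 normalized counts in WT control with a median of 52.5, 40.5 to 176 in APP control with a median of 106, and 44.0 to 220 in APP anti-miR-mix with a median of 130. The value of 263 belonged to WT control 1 and was the highest of all 19 libraries, the next WT control value was 160, and the 3 groups overlapped over most of their range. The log2 difference of APP anti-miR-mix from WT control was 0.39 (SE 0.49, DESeq2 adjusted p = 0.759) and became 0.92 without WT control 1 (adjusted p = 0.205). Ddx58 was called in both transgenic groups when WT control 1 was left out, and Ifih1 in APP anti-miR-mix only, with log2 values of 0.72 and 0.68 there.

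Among the signalling factors, Irf9 and Stat2, which take part in carrying the type I interferon signal to the ISRE, rose in APP anti-miR-mix. Irf9 (ENSMUSG00000002325, chr14:55603571-55610030), the DNA-binding subunit of the complex, spanned 481 to 874 normalized counts in WT control (median 583), 610 to 844 in APP control (median 781) and 589 to 931 in APP anti-miR-mix (median 877). Its WT control values other than library 1 ended at 591, under all 6 APP control libraries and under 6 of 7 APP anti-miR-mix libraries. The log2 fold change was 0.45 in APP anti-miR-mix (SE 0.14, DESeq2 adjusted p = 0.0167) and 0.33 in APP control (SE 0.14, adjusted p = 0.205), and leaving out WT control 3 or WT control 6 ended the call. Stat2 (ENSMUSG00000040033, chr10:128270559-128292849), its STAT partner, spanned 1116 to 1817 in WT control (median 1194), 1341 to 1816 in APP control (median 1575) and 1479 to 1984 in APP anti-miR-mix (median 1705). WT control 1 held the second highest Stat2 value of the 19 libraries, and the next WT control value of 1377 lay under every APP anti-miR-mix library. Stat2 rose by 0.36 in APP anti-miR-mix (SE 0.11, adjusted p = 0.0182) and differed by 0.29 in APP control (SE 0.12, adjusted p = 0.161). Leaving out WT control 3, 5 or 6 or APP anti-miR-mix 3 ended the call. Without WT control 1 the values were 0.48 and 0.40, both called, and Irf9 and Stat2 were then the 2 of 4 factors called in each transgenic group. Irf1 and Irf7, transcription factors that are themselves interferon-induced, were not called in any of these fits. Irf7 peaked in WT control 1 at 711 and APP anti-miR-mix 3 at 756, but was at 145 for APP control 5 and at 168 for APP anti-miR-mix 2, so its groups overlapped almost fully.

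The mouse Stat2 promoter is shown because Stat2 was among the 3 called members with the smallest adjusted p whose window held the ISRE core. The stretch is chr10:128270248-128270497 on the plus strand of GRCm38.p6 (RefSeq), and the capitals mark the ISRE core GAAANNGAA read on the opposite strand as TTCNNTTTC, 221 to 213 bases before the annotated start.
Stat2: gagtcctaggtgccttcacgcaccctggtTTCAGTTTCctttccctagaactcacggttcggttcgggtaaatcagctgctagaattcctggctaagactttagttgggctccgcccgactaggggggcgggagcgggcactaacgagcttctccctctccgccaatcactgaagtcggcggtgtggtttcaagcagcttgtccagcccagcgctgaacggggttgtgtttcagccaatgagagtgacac

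The ubiquitin-like pathway and its regulators comprised Isg15, a ubiquitin-like protein that is attached to other proteins, Usp18, the protease that removes it and that also restrains the receptor, the ligases Herc6 and Trim25, Trim30a, and Ifi35. Trim25 and Trim30a rose in APP anti-miR-mix and none of the 6 rose in APP control, whereas without WT control 1 the counts were 4 (with Usp18 and Ifi35) and 3 (Trim25, Trim30a and Ifi35). Trim30a (ENSMUSG00000030921, chr7:104409025-104465193) spanned 110 to 393 normalized counts in WT control (median 221), 196 to 464 in APP control (median 352) and 195 to 644 in APP anti-miR-mix (median 514). Most APP anti-miR-mix libraries lay above the highest WT control library, but APP anti-miR-mix 2 at 195 lay under the WT control median. The rise was 1.03 on the log2 scale (SE 0.31, DESeq2 adjusted p = 0.0154), or 2.05-fold, and leaving out WT control 6 ended the call. Trim25 (ENSMUSG00000000275, chr11:88999376-89020293), a ligase that activates RIG-I, spanned 264 to 572 in WT control (median 311), 374 to 557 in APP control (median 492) and 375 to 604 in APP anti-miR-mix (median 545). With WT control 1 set aside, its highest WT control value was 373 and every transgenic library was above it. Trim25 rose by 0.54 in APP anti-miR-mix (SE 0.17, DESeq2 adjusted p = 0.0183, edgeR adjusted p = 0.0536), and leaving out WT control 2, 3 or 6 or APP anti-miR-mix 6 ended the call. In APP control the difference was 0.43 (SE 0.17, adjusted p = 0.155).

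Usp18 (ENSMUSG00000030107, chr6:121245906-121270917) followed single libraries more closely than groups. Its 347 normalized counts in WT control 1 were the highest of the 19 libraries and 3.90 times the median of the other WT control libraries, which spanned 66.1 to 162. APP control spanned 87.1 to 233 (median 186) and APP anti-miR-mix from 86.0 to 307 (median 240), so both groups reached down into the WT control range. The log2 difference was 0.60 in APP anti-miR-mix (SE 0.38, DESeq2 adjusted p = 0.413) and 1.08 without WT control 1 (adjusted p = 0.00452). Isg15, a widely used marker of the response, had log2 differences of 0.07 and 0.53 in the 2 transgenic groups and was not called with or without WT control 1.

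The Trim30a window is shown for the same reason as that of Stat2. It spans chr7:104465194-104465443 on the minus strand of GRCm38.p6, and its capitals mark TTCNNTTTC, 35 to 27 bases before the start.
Trim30a: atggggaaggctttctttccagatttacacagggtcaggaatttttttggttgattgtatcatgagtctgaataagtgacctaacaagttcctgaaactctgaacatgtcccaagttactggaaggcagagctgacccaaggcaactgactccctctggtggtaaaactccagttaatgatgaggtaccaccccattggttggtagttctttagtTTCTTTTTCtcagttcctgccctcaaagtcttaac

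The Ifit family binds viral RNA ends and blocks their translation. None of its 4 members, Ifit1, Ifit2, Ifit3 and Ifit3b, was called against WT control in the fit of all libraries, and without WT control 1 Ifit3b was called in APP control and 2 (Ifit3 and Ifit3b) were called in APP anti-miR-mix. Ifit3 (ENSMUSG00000074896, chr19:34583531-34588731) spanned 260 to 971 normalized counts in WT control (median 360), 290 to 836 in APP control (median 653) and 364 to 911 in APP anti-miR-mix (median 764). WT control 1 had the highest Ifit3 value of all 19 libraries, and WT control 4 was next in its group at 588. Its neighbour Ifit3b (ENSMUSG00000062488, chr19:34607970-34613401) spanned 105 to 371 in WT control (median 170), 140 to 379 in APP control (median 292) and 192 to 368 in APP anti-miR-mix (median 336). In both genes the lowest APP control library was number 5, the lowest APP anti-miR-mix library was number 2 and the highest APP control library was number 6. The log2 differences in APP anti-miR-mix were 0.54 for Ifit3 (SE 0.34, DESeq2 adjusted p = 0.399) and 0.61 for Ifit3b (SE 0.26, adjusted p = 0.127), and both were called without WT control 1, at 0.88 and 0.90. Of the 50-base stretches in Ifit3 transcripts, 51.2% also occur in Ifit3b, so reads of the pair cannot be fully told apart and their values are not independent.

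The stretches upstream of Ifit3 and Ifit3b are shown because the pair shares them, a choice made after the values were seen. They lie at chr19:34583364-34583443 and chr19:34607760-34607839 on the plus strand of GRCm38.p6, 80 of 80 positions are identical, and the capitals mark 3 matches to TTCNNTTTC in each.
Ifit3: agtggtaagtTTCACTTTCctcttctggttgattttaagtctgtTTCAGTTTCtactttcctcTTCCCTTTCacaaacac
Ifit3b: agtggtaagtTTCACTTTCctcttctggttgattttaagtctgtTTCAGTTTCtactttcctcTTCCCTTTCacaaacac

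The OAS family and other RNA-directed effectors comprised Oas1a, Oas2 and Oasl2, Eif2ak2 (PKR, a kinase that halts translation on double-stranded RNA), the RNA editing enzyme Adar and the nucleotide hydrolase Samhd1. Eif2ak2 rose in APP anti-miR-mix and none of the 6 rose in APP control. Without WT control 1, Eif2ak2 was the 1 member of this role called in APP control, and 4 were called in APP anti-miR-mix (Oas1a, Oas2, Eif2ak2 and Samhd1). Eif2ak2 (ENSMUSG00000024079, chr17:78852564-78882573) spanned 257 to 529 normalized counts in WT control (median 291), 343 to 573 in APP control (median 447) and 329 to 626 in APP anti-miR-mix (median 536). All but 1 of the transgenic libraries lay between 343 and 626, and the WT control libraries other than number 1 lay between 257 and 395. It rose by 0.58 in APP anti-miR-mix (SE 0.18, DESeq2 adjusted p = 0.0176, edgeR adjusted p = 0.0513) and differed by 0.44 in APP control (SE 0.18, adjusted p = 0.192). Leaving out any of WT control 2, 3 or 6 or APP anti-miR-mix 4 ended the call.

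Oas1a (ENSMUSG00000052776, chr5:120896256-120907521) had the largest log2 difference without a call. It spanned 23.1 to 95.2 normalized counts in WT control (median 27.2), 15.9 to 106 in APP control (median 72.4) and 28.3 to 140 in APP anti-miR-mix (median 88.7). In WT control 4 libraries lay close to the median and libraries 1 and 4 stood above them, while the lowest value of all was in APP control 5. The log2 difference was 1.08 in APP anti-miR-mix (SE 0.39, DESeq2 adjusted p = 0.0594) and 1.46 without WT control 1 (adjusted p = 0.00309). Of the 50-base stretches of Oas1a, 57.6% also occur in other genes, chiefly Oas1g, which limits what its reads can be assigned to. Adar spanned 4731 to 6015 in WT control, 4682 to 5334 in APP control and 4662 to 5910 in APP anti-miR-mix. It was the only member whose highest WT control value was not in library 1, and its log2 differences from WT control were -0.10 and -0.01.

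The Eif2ak2 stretch is shown because Eif2ak2 was the other called member with the smallest adjusted p that held the ISRE core. It covers 30 bases after the annotated start, chr17:78882532-78882561 on the minus strand of GRCm38.p6, and the capitals mark 2 overlapping matches to GAAANNGAA.
Eif2ak2: ccgccggGAAAACGAAACAGAAgagaaccg

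The membrane and lipid-droplet antiviral proteins were Ifitm3, which blocks viral fusion, Bst2 (tetherin), Rsad2 (viperin), the nucleotide kinase Cmpk2 encoded beside it, and Rtp4. None of the 5 rose in either transgenic group, and without WT control 1 Ifitm3 was called in APP control, while 3 (Ifitm3, Bst2 and Rtp4) were called in APP anti-miR-mix. Ifitm3 (ENSMUSG00000025492, chr7:141009586-141010770), among the 3 members with the highest level per kilobase of exon at a mean of 852 normalized counts per kilobase, spanned 280 to 724 normalized counts in WT control (median 371), 412 to 741 in APP control (median 635) and 369 to 946 in APP anti-miR-mix (median 709). Library 1 and a value of 562 stood above the rest of WT control, and APP anti-miR-mix 7 lay at the WT control median. Its log2 differences were 0.51 for APP control (SE 0.23, DESeq2 adjusted p = 0.248) and 0.58 for APP anti-miR-mix (SE 0.22, adjusted p = 0.0835), and both were called without WT control 1. Rsad2 reached 358 in APP control 6, where the next APP control value was 158, and its log2 difference of 0.63 in APP anti-miR-mix had a standard error of 0.46. Cmpk2 moved little, with log2 differences of 0.04 and 0.09.

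Of the mitochondrial and small inducible proteins, Ifi27, Ifi27l2a, Ifi44 and Xaf1, none was called in the fit of all libraries, and without WT control 1 Ifi27 was called in both transgenic groups and Ifi27l2a in APP anti-miR-mix. Ifi27 (ENSMUSG00000064215, chr12:103434211-103440239) had the highest mean level of the 46 members per kilobase of exon, 1320 normalized counts per kilobase, whereas Ifi44 had the lowest, 14.7. It spanned 1256 to 2136 normalized counts in WT control (median 1441), 1497 to 2550 in APP control (median 2179) and 1417 to 2596 in APP anti-miR-mix (median 2269). The groups overlapped, with APP control 5 and APP anti-miR-mix 7 close to the WT control median. The log2 differences of Ifi27 were 0.39 for APP control (SE 0.16, DESeq2 adjusted p = 0.181) and 0.40 for APP anti-miR-mix (SE 0.16, adjusted p = 0.0903). Parp9, Dtx3l and Parp14 act in ADP-ribosylation, and the first pair act as a complex. Their log2 differences ran from 0.33 to 0.61 in APP anti-miR-mix without a call. Without WT control 1 all 3 were called there and 2 of them, Parp9 and Parp14, in APP control.

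The GBP and IRG GTPases, large GTPases known for their strong induction by interferon gamma and for attacking the vacuoles of intracellular parasites, stood highest in WT control 1. All 6 of them (Gbp2, Gbp3, Gbp7, Iigp1, Irgm1 and Igtp) had the highest value of the 19 libraries in WT control 1. Its ratio to the median of the other WT control libraries ran from 2.08 to 6.36 over the 6 genes with a median of 3.57, whereas the medians of the other roles lay between 2.08 and 2.61. None of them was called in either transgenic group, and their median log2 fold changes were 0.07 for APP control and 0.14 for APP anti-miR-mix. Without WT control 1 the medians were 0.66 and 0.73, with 2 called in APP control (Irgm1 and Igtp) and 3 in APP anti-miR-mix (Gbp3, Irgm1 and Igtp). No test was made between the roles.

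Igtp (ENSMUSG00000078853, chr11:58199556-58207591, also known as Irgm3) had the most extreme single value. It stood at 1019 normalized counts in WT control 1 and between 155 and 299 in the rest of that group. APP control spanned 194 to 420 (median 314) and APP anti-miR-mix from 165 to 427 (median 323), so no transgenic library came near WT control 1. The log2 difference in APP anti-miR-mix was -0.09 (SE 0.42, DESeq2 adjusted p = 0.949) and turned to 0.69 without that library (adjusted p = 0.0429). Part of an Igtp exon overlaps Irgm2 on the same strand, and 11.8% of its 50-base stretches are shared.

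Iigp1 (ENSMUSG00000054072) stood at 521 normalized counts in WT control 1 and between 56.0 and 175 in the rest of that group, beside 69.3 to 299 in APP control (median 163) and 84.9 to 302 in APP anti-miR-mix (median 202). Gbp2 (ENSMUSG00000028270, chr3:142620602-142638008) stood at 959 in WT control 1 and between 198 and 461 in the others, beside 239 to 554 in APP control (median 427) and 176 to 594 in APP anti-miR-mix (median 429). For both genes the highest transgenic library was well under WT control 1, and APP control 1 and APP anti-miR-mix 2 were the lowest of their groups. The log2 differences in APP anti-miR-mix were 0.12 for Iigp1 (SE 0.49, DESeq2 adjusted p = 0.941) and -0.06 for Gbp2 (SE 0.37, adjusted p = 0.958). Without WT control 1 they were 0.84 and 0.40, neither called.

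A short stretch before the Igtp start is shown because of its WT control 1 value, a choice made after that value was seen. It is chr11:58199512-58199555 on the plus strand of GRCm38.p6, and the capitals mark 1 match to GAAANNGAA, 34 to 26 bases before the start.
Igtp: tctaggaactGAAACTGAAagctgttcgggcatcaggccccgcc

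The remaining members act in the nucleus, in antigen processing or outside the cell, and 3 of these 5 rose in APP anti-miR-mix and 1 in APP control, whereas without WT control 1 the counts were 4 and 3. Lgals3bp (ENSMUSG00000033880, chr11:118392751-118402092), a secreted glycoprotein that binds galectins, spanned 941 to 2623 normalized counts in WT control (median 1263), 1708 to 4017 in APP control (median 3169) and 2165 to 5168 in APP anti-miR-mix (median 3613). Apart from WT control 1, no WT control library exceeded 1483, and all 13 transgenic libraries lay above that value. Lgals3bp rose by 1.10 on the log2 scale in APP control (SE 0.30, DESeq2 adjusted p = 0.00691), or 2.14-fold, and by 1.33 in APP anti-miR-mix (SE 0.28, adjusted p = 0.00014), or 2.51-fold. The latter call was kept under all 33 alternatives tried.

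Sp100 (ENSMUSG00000026222, chr1:85649988-85709998), a scaffold of nuclear bodies, spanned 114 to 270 normalized counts in WT control (median 157), 126 to 288 in APP control (median 237) and 159 to 405 in APP anti-miR-mix (median 316). WT control and APP control overlapped over nearly their whole range, and 4 of 7 APP anti-miR-mix libraries lay above every APP control library but none of the groups was separate. Sp100 rose by 0.81 in APP anti-miR-mix (SE 0.22, DESeq2 adjusted p = 0.00645), a call kept under all 33 alternatives, and differed by 0.39 in APP control (SE 0.23, adjusted p = 0.486). Ifi204 (ENSMUSG00000073489, chr1:173747293-173766943), a DNA-binding protein of the p200 family, spanned 23.5 to 149 in WT control (median 58.9), 90.7 to 187 in APP control (median 144) and 55.6 to 260 in APP anti-miR-mix (median 189). Its WT control values spread widely, with 109 in the library next to number 1. It rose by 1.25 in APP anti-miR-mix (SE 0.39, DESeq2 adjusted p = 0.0195), and leaving out WT control 2, WT control 6 or APP anti-miR-mix 5 ended the call. Part of its 50-base stretches are shared with other genes, chiefly Ifi211. Psmb8, an immunoproteasome subunit, stood at 378 in WT control 1 and at most 172 in the rest of that group, and its log2 difference of 0.67 in each transgenic group rose to 1.10 in each without that library. Slfn2 was not called in either fit.

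**Figure D3:**
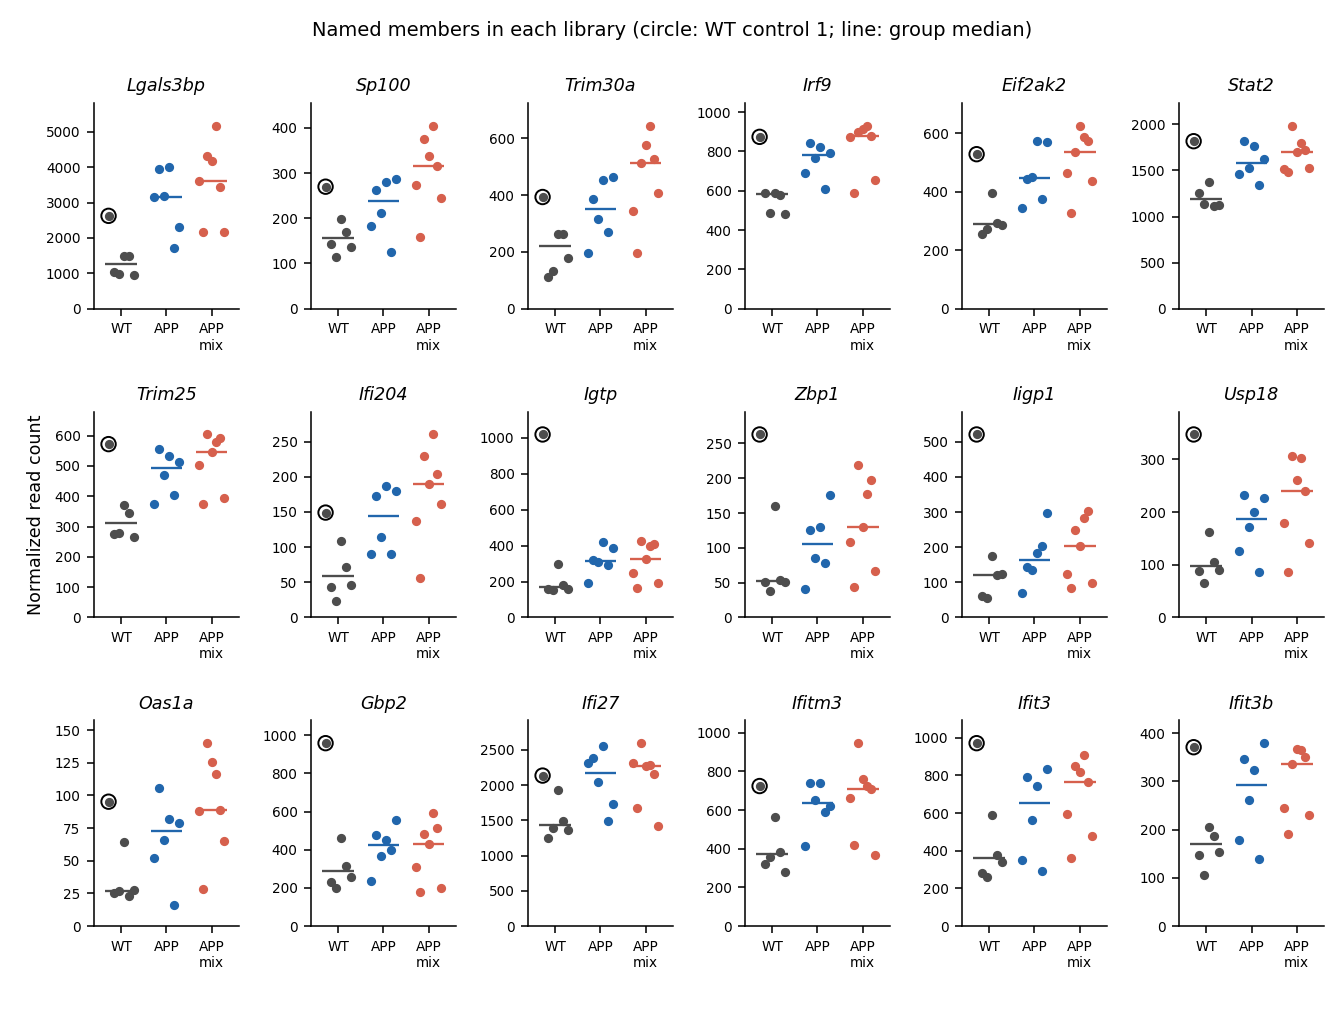
Normalized read counts of 18 members in each library, in WT control, APP control and APP anti-miR-mix, with a line at each group median and a circle around WT control 1. In Lgals3bp, Stat2 and Trim25 the circled point alone overlaps the APP anti-miR-mix points, and in Igtp it stands at 1019 above a next value of 427.

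With group means removed and the groups pooled, the members largely moved together from library to library. Roles could still differ within a library. Relative to the WT control median, APP control 5 had a mean log2 difference of 0.40 for the GTPases but -0.24 for the Ifit family. On the log2 scale the first component of the within-group variation held 81.8% of the members' variation over the 19 libraries, beside 27.7% for all genes tested, and 77.6% beside 28.5% without WT control 1. The median within-group standard deviation of the members was 0.66 for WT control, 0.46 for APP control and 0.49 for APP anti-miR-mix, beside 0.19, 0.19 and 0.17 for all genes. Without library 1 the WT control value was 0.35. That library was singled out by these genes, so its omission lowers the spread by construction. No library was left out of the transgenic groups, so 0.35 is not comparable with their values. As a mean over the 46 members, the log2 level of WT control was 8.06 ± 0.58 (SD, n = 6), that of APP control 8.44 ± 0.39 (n = 6) and that of APP anti-miR-mix 8.63 ± 0.47 (n = 7). WT control without library 1 stood at 7.86 ± 0.33 (n = 5).

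High and low libraries were present in every group. WT control 1 had the highest mean of all 19 libraries, 9.08, followed by APP anti-miR-mix 5 and 3 with 9.04 each. WT control 3 was lowest at 7.52 and held the lowest WT control value of 27 members. In APP control, library 6 was highest for 26 members, library 1 was lowest for 24 and library 5 was lowest for 22. In APP anti-miR-mix, library 2 was lowest for 39 members at a mean of 7.83, inside the WT control range, and libraries 5 and 3 were highest for 19 and 17. Of all genes tested, WT control 1 exceeded the highest other WT control library more than 2-fold in 48 of 17210 genes with a mean of at least 10 outside the lists used here, and in 9 of the 46 members. The authors' table of normalized values differs from the scaled log2 counts by an amount per gene that is proportional to a whole number per library, and that number is 1 for WT control 1, APP control 1 and APP anti-miR-mix 1. The latter pair ranked 15 and 9 of 19 in the members' mean, and with that number as a factor 1 and 9 members were called against WT control.

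**Figure D4:**
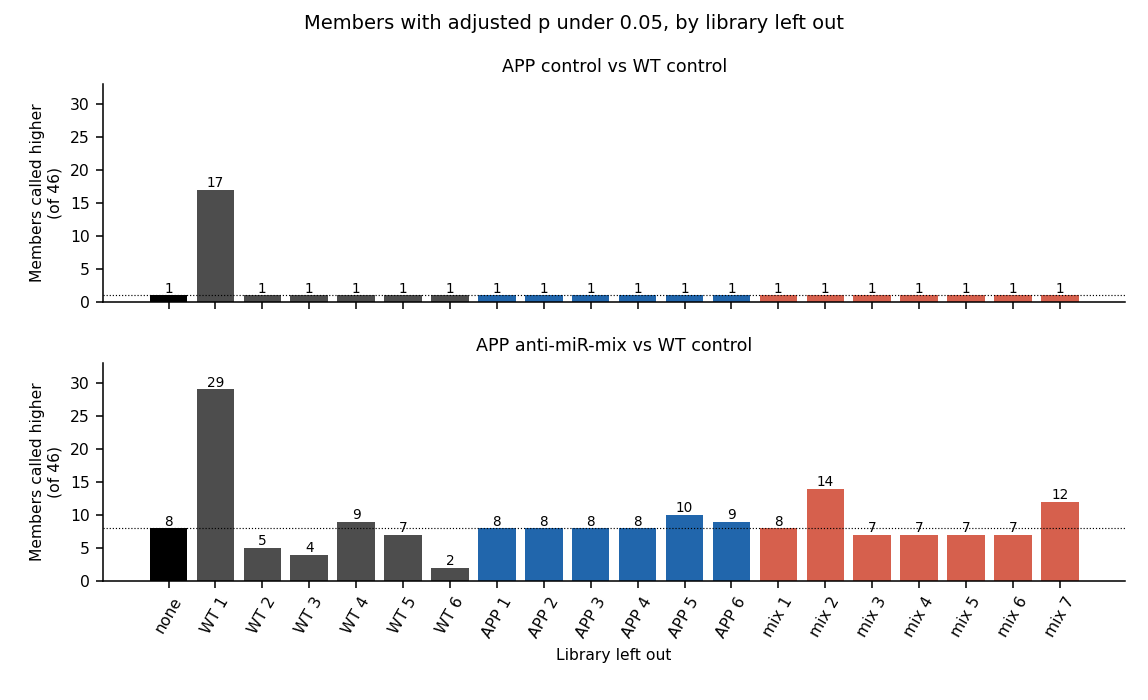
Bars give the number of the 46 members called higher (DESeq2, adjusted p under 0.05) with no library left out and with each of the 19 libraries left out in turn, for APP control (top) and APP anti-miR-mix (bottom) against WT control. Leaving out WT control 1 raises the count from 1 to 17 and from 8 to 29, whereas leaving out WT control 2, 3 or 6 lowers the latter to 5, 4 and 2 and leaving out APP anti-miR-mix 2 raises it to 14.

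Summed markers of T and NK cells stood highest in WT control 1. Of 12 such markers 9 passed the filter on low counts, none of the 12 was at 0 in every library, and all 9 had their highest WT control value in library 1. Below the filter, Gzmb (10.8) and Gzma (4.91) were also highest there within WT control. Klrb1c went the other way, at 0 in WT control 1 and 3.43 in WT control 4. The sum of the 12 was 519 normalized counts in WT control 1 and between 109 and 224 in the rest of that group, and it spanned 114 to 322 in APP control (median 174) and 70.2 to 463 in APP anti-miR-mix (median 267). From the lowest sum to the highest, the APP anti-miR-mix libraries stood in the same order as by the mean of the members, apart from libraries 1 and 4, which changed places (sums of 267 and 148 beside means of 8.52 and 8.88), and so did the WT control libraries apart from 2 and 3 (sums of 109 and 118 beside 7.67 and 7.52). In APP control the sum was highest in library 4 at 322 while the mean was highest in library 6, and library 1, lowest by its mean, had a sum of 114 that differed by less than 1 count from the lowest. By the plaque-associated microglia sum, APP anti-miR-mix 2 and 7 were also lowest, at 13975 and 14467. Library 4 was highest by that sum, at 25768, whereas library 5 was highest by the members' mean. None of the 9 T and NK cell markers was called in any comparison, and their part in the members' levels was not tested. All 6 oligodendrocyte markers were also highest in WT control 1 among the WT control libraries.

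Microglial markers were higher in the transgenic groups. Of 10 plaque-associated microglia markers, 9 rose in APP control and all 10 did so under the anti-miR mix, with sums from 4479 to 7929 for WT control, 7750 to 24175 for APP control and 13975 to 25768 for APP anti-miR-mix. Of 10 homeostatic microglia markers, 8 and 9 rose, with sums from 11801 to 18039, from 15492 to 33778 and from 22908 to 35685. WT control 1 had the highest plaque-associated sum of its group but only the second highest homeostatic sum, at 16677 beside 18039 in WT control 5. Markers of other cells moved too. Of 8 astrocyte markers Gfap alone rose, in both transgenic groups, and of 8 endothelial markers Flt1 and Cdh5 rose in both and Tek in APP anti-miR-mix, with endothelial sums from 3903 to 5216 for WT control, 4612 to 7134 for APP control and 4024 to 5812 for APP anti-miR-mix. The 7134 belonged to APP control 5, and the next APP control sum was 5268 in library 3. Of 8 neuron markers Gad1, an enzyme of GABA synthesis, fell in both transgenic groups (DESeq2 adjusted p = 0.00292 and 0.0215), with 1 marker called lower in each and none higher. Of 7 markers of meninges and fibroblasts none rose in APP control and 4 rose in APP anti-miR-mix (Col1a1, Col1a2, Ptgds and Aldh1a2), with sums from 5417 to 14526, from 8063 to 35391 and from 13163 to 28501. The 35391 was also in APP control 5, followed by 31655 in APP control 3. The part of these cells in the members' differences between genotypes was not tested.

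**Figure D5:**
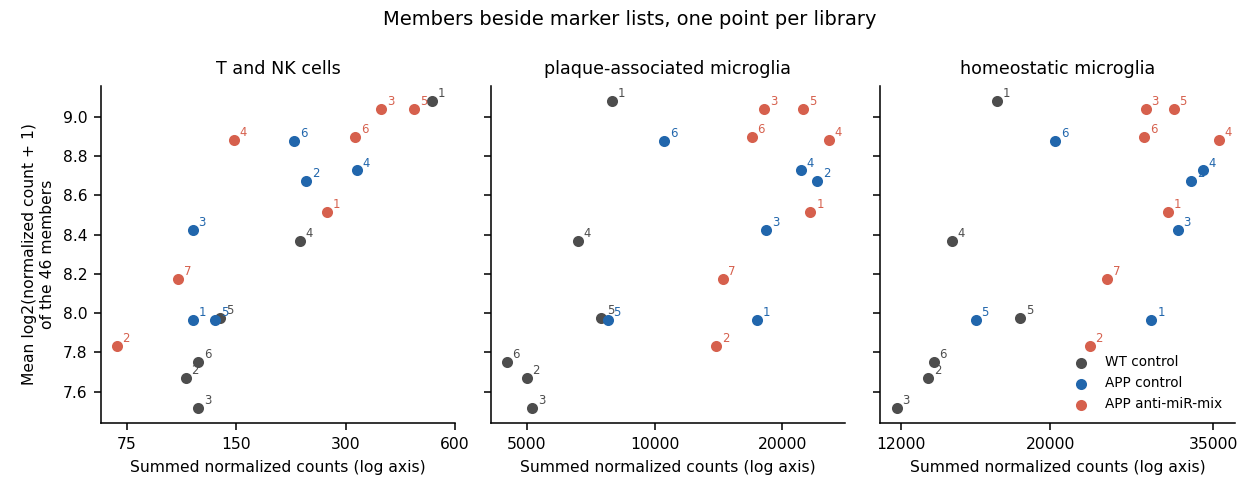
Mean log2(normalized count + 1) of the 46 members in each library against the summed normalized counts (log axis) of markers of T and NK cells, plaque-associated microglia and homeostatic microglia, 1 numbered point per library. WT control 1 has the highest T and NK cell sum, 519, and a plaque-associated sum of 7929 that lies among the lowest of the 19 libraries.

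Other genes of the interferon pathway were read from 5 further lists, in the order of the pathway. The ligands were at the edge of detection at this depth. Of 13 interferon genes none passed the filter, 4 had no read in any library, and all 13 together had 44 reads over the 19 libraries, with at most 3 of any gene in a library. Ifng had 20 of these reads, in 13 libraries, and Ifnb1 had 9, in 8 libraries, so their levels could not be compared. Of the 9 receptor chains and JAK kinases, 3 rose in each transgenic group and none fell. Ifnar2, a chain of the type I receptor, spanned 348 to 448 normalized counts in WT control, 445 to 611 in APP control and 485 to 588 in APP anti-miR-mix, with log2 fold changes of 0.36 (DESeq2 adjusted p = 0.000914) and 0.37 (adjusted p = 0.000296). WT control 1 stood at 436, inside its group. Ifnar1, its partner, spanned 1466 to 1631 over all groups and had log2 differences of 0.00 and 0.04. Ifngr1, the ligand-binding chain for interferon gamma, rose by 0.35 and 0.37, and Il10rb, a chain shared by the lambda interferon receptor, by 0.65 and 0.69. Ifngr2, with differences of 0.02 and -0.01, and Ifnlr1, with -0.27 and -0.02, were not called.

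Of 17 sensors and adaptors tested beside the members, 5 rose in APP control whereas 8 rose in APP anti-miR-mix, while Trex1, the last of the 18 listed, had no read in any library. Tlr7, an endosomal receptor for RNA, spanned 96.7 to 168 normalized counts in WT control, 256 to 403 in APP control and 207 to 540 in APP anti-miR-mix, with no overlap between WT control and either group. It rose by 1.39 (SE 0.19, DESeq2 adjusted p = 3.44e-10) and 1.54 (SE 0.19, adjusted p = 1e-13). The further transcription factors and feedback regulators showed 4 of 13 higher in each transgenic group, namely Stat3, Irf5, Irf8 and Ptpn6. Irf8, a factor of the myeloid lineage, rose by 1.40 and 1.53, Irf5, which acts downstream of endosomal receptors, by 1.22 and 1.27, and the phosphatase gene Ptpn6 by 1.22 and 1.37. In Irf5 and Irf8 the highest WT control library was again number 1, at 233 and 497, beside medians of 433 and 954 in APP control.

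A further list held 63 interferon-inducible genes. Of the 62 tested, 3 rose in APP control (Ifitm2, Ly6e and Sdc4) and 14 in APP anti-miR-mix, and without WT control 1 the counts were 20 and 36. Of all genes tested, 18.4% had their highest WT control value in WT control 1. That library held it in 4 of 9 receptors and kinases, 9 of 17 sensors and adaptors, 10 of 13 factors and regulators and 58 of the 62. Sdc4, a heparan sulphate proteoglycan of the cell surface, was an exception with 1928 to 2235 normalized counts in WT control and 2337 to 2769 in APP control, without overlap, and it rose by 0.32 and 0.40. In APP anti-miR-mix alone, Casp1, which processes interleukin-1 beta, rose by 1.04 (DESeq2 adjusted p = 0.00013), Ifi207 by 1.45 (adjusted p = 9.12e-05) and Sp110 by 1.07 (adjusted p = 0.00025), beside 0.44, 0.88 and 0.67 without a call in APP control. The differences between the transgenic groups were not called for any of these genes. Over the 101 pathway genes tested, 15 and 29 rose and none fell in the fit of all libraries, beside 3.66% and 5.59% of all genes called higher. Without WT control 1, 35 rose in APP control, and 54 rose and Jak1 fell by 0.13 in APP anti-miR-mix. The shares of all genes called higher in that fit were 4.65% and 6.38%.

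Promoter windows were searched for the motifs of both interferon types. A window of 300 bases from RefSeq on GRCm38.p6, with 250 bases before the start, was matched by symbol for 36 of the 46 members. The ISRE core GAAANNGAA, searched on both strands, was present for 21 of these 36 (58.3%), beside 9.76% of 27025 genes with a window. The GAS motif TTCNNNGAA, which reads the same on both strands, was present for 12 (33.3%), beside 9.55%. No match to either was found for 10 members, among them Lgals3bp, Sp100 and Irf9, and these windows cover only the bases next to the start. Of the 6 GTPases, 5 had a window and all 5 held the ISRE core, and Adar, whose level hardly moved, held it as well. A match to such short motifs is a description of the sequence.

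Sequence shared with other genes limits single members. Of the 46, 12 shared more than 10% of their 50-base stretches with transcripts of other genes, and 34 shared less. Irf9 shares exon positions with Rnf31 on the same strand, Eif2ak2 with Gm26637 and Psmb8 with Gm20496 on the opposite strand, and Parp9 and Dtx3l overlap each other head to head. The library kit does not mark strand, so reads over these positions cannot be told apart.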

How the data were processed

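RNA from microdissected CA1 was sequenced by the study with TruSeq RNA v2 libraries and single-end reads on the HiSeq 2000. The authors aligned reads to mm10 with STAR (2.5.2b) and deposited raw read counts per Ensembl gene made with featureCounts (Subread 1.5.1); the annotation release and strand setting are not given in the sources used here. Totals were 19362343 to 37018917 counts per library. The authors also deposited a log2 table of 18825 genes whose values depart from the scaled log2 counts by an amount per gene that is proportional to a whole number, 1 to 5, assigned to every library. The meaning of that number is not stated, and the table served only as an alternative, with limma (3.58.1) run on it directly because it was already logarithmic. Of the 48709 identifiers 48349 were in GENCODE M21.

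Groups came from the sample titles. The filter kept 19297 genes that reached 5 counts in 50% or more of the libraries. DESeq2 (1.42.0) was fitted once to the 3 groups together, with Wald tests on log2 fold changes without shrinkage and a threshold of 0.05 on the Benjamini-Hochberg adjusted p. Its replacement of outlying counts needs 7 libraries in a group, a size reached by APP anti-miR-mix only. The test was tried on simulated data first. Alternatives were edgeR (4.0.16) quasi-likelihood tests, TMM factors, other filters, no replacement of outlying counts, fits of 2 groups, the adjustment number, a block for the replicate number, and leaving out libraries. In no pair of libraries of a group did counts agree within sampling noise. Scores used log2(normalized count + 1). R (4.3.3) and Python (3.11.15) were used.

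The members and lists were chosen with earlier results of these data known. Members were named where their adjusted p was under 0.05 in any comparison, where the highest library stood furthest above its group's median (6 genes), where the level per kilobase of exon was highest (3 genes), and for the pair Ifit3 and Ifit3b. Pathway genes were named by the 8 smallest adjusted p, beside receptors and 1 further gene that is not reported here. Other genes named with values were chosen after their values were seen.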

Additional observations from a re-analysis of the deposited data

Results flagged for a closer look

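For each member and group, the gap between the highest or lowest library and its nearest neighbour was set against the whole range of the group (Dixon's 95% criterion), a rule that chance meets in about 1 in 20 groups. Of 138 groups tested, 21 met it, of which 19 belonged to WT control, 2 to APP control and none (0) among the APP anti-miR-mix groups. In all 19 WT control cases library 1 was the highest value. Among sensors, signalling factors and regulators these were Ddx58 with 556 normalized counts, Irf1 with 550, Irf9 with 874, Stat2 with 1817, Usp18 with 347, Trim25 with 572 and Ifi35 with 172. Among the antiviral effectors they were Ifit2 with 858, Samhd1 with 975, Xaf1 with 648 and Parp14 with 747. Among the GTPases they were Gbp2 with 959, Gbp3 with 789, Iigp1 with 521, Irgm1 with 1459 and Igtp with 1019. The last were Slfn2 with 336, Lgals3bp with 2623 and Psmb8 with 378. In APP control, library 6 stood apart for Rsad2 with 358 and for Gbp7 with 458. The 46 members vary together within a group, so these cases are not independent of each other.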

How the results depend on the processing

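The comparison of APP anti-miR-mix with APP control called 0 members and 0 pathway genes under each of its alternatives, and the members' median log2 fold changes kept their direction in all 3 comparisons. The other counts rested on single libraries. With each library left out in turn, the members called numbered 1 to 17 for APP control and 2 to 29 for APP anti-miR-mix against WT control, and the pathway genes from 11 to 35 and from 21 to 55. Leaving out WT control 1 gave 17 and 29 members, and leaving out WT control 2, 3 or 6 or APP anti-miR-mix 2 gave 5, 4, 2 and 14 in the latter comparison. Leaving out WT control 1 and 5 gave 16 and 26 members and 34 and 55 pathway genes, and leaving out WT control 5 and APP anti-miR-mix 6 gave 3 members in APP anti-miR-mix. The edgeR test without WT control 1 gave 9 and 23 members and 24 and 50 pathway genes. That fit and the count of members highest in WT control 1 under scaling to the library total and in the deposited table, 45 and 44, were chosen after seeing the data. A replicate block gave 2 and 13 members. Libraries with the same number had correlations of their deviations from -0.12 to 0.35 over 18 pairs, 10 of them above 0.1, and 5 correlated best with their own number, so the numbers were not taken to pair the samples. Among single members against WT control in APP anti-miR-mix, the log2 difference changed sign for Igtp to 0.28 with the replicate block, 0.038 with the adjustment number as a linear term, 0.062 with the number as a factor, 0.23 in limma, 0.67 without WT control 1 and 5 and 0.70 in edgeR without WT control 1. It changed for Gbp2 to 0.13 with the block, 0.069 in limma, 0.43 without WT control 1 and 5 and 0.41 in edgeR without WT control 1, and for Iigp1 to -0.11 without WT control 5 and APP anti-miR-mix 6. With single libraries left out, Igtp ran from -0.24 to 0.69, Iigp1 from -0.064 to 0.84 and Gbp2 from -0.20 to 0.40. Of these causes only the removal of libraries is shown by the alternatives, and the cause of the others was not tested. The interferon ligands had at most 3 reads of any gene in a library, and whether more depth would change this was not tested.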

Other observations

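Outside the lists, the genes with a mean of at least 10 that stood highest in WT control 1 relative to the next WT control library, a rule chosen after the values were seen, included further GTPase and lymphocyte genes. Gbp10 stood at 53.0 normalized counts in WT control 1 and at most 10.3 in the other WT control libraries, and the immunity-related Gm12250 at 86.3 beside at most 27.5. Sh2d2a, an adaptor of T cells, stood at 46.1 beside at most 12.02, Il2ra, a chain of the interleukin-2 receptor, at 40.2 beside at most 12.02, and Gimap3 at 119.7 beside at most 42.9. Cd74, the invariant chain of MHC class II, stood at 1264 in WT control 1 and from 96.0 to 372 in the rest of WT control. Its values spanned 362 to 1997 for APP control and 271 to 1444 for APP anti-miR-mix, so for Cd74 WT control 1 lay inside the transgenic range, while for Gbp10 the highest transgenic value was 22.9. Cxcl13, a chemokine that attracts B cells, stood at 100.1 in WT control 1 and at most 36.1 in the other WT control libraries.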
